A study of Mus musculus with 16 samples.

Results

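Around the MHC class II genes on mouse chromosome 17 lie 7 genes that do not belong to the class II pathway and that are described here in germinal centre B cells with normal, deleted or mutated Crebbp. They are Myo1f, Btnl1, Btnl2, H2-M3, Tnfrsf21, Tjap1 and Cul9. They were chosen by name from the rows of the deposited count table, all between 33 and 47 Mb of the chromosome, and chosen with their counts scaled to library size (CPM) in these same libraries in view. They are 7 of the 48593 genes in the table and of the 16606 genes with enough counts to be tested. The same stretch held 549 genes of the table and 245 tested genes. Of the latter, 9 were on the class II list used here and 229 were neither on it nor among the 7. Since the choice used each genotype against its own wild type, the differences of the 7 genes are given as descriptions with their standard errors (SE) and without p values.

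Germinal centre B cells were sorted as B220+, PNA+ and CD95+ cells from the spleens of mice immunised with sheep red blood cells, and 16 RNA libraries were sequenced in 2 cohorts. The knockout cohort held 3 Crebbp wild type libraries (KO cohort WT) and 3 knockout libraries (KO), and the RH cohort held 3 wild type libraries (RH cohort WT), 4 libraries heterozygous for the RH knock-in allele of Crebbp (RH HET) and 3 homozygous ones (RH HOMO). The series title calls both alleles conditional and specific to germinal centres, and the labels name no Cre driver, mouse strain or age. Whether every library had its own mouse is not stated. P values therefore measure the spread between these libraries, which may be technical. Collection was on day 12 by the growth protocol but on day 10 by the treatment tag. The library RH cohort WT 1 carries a batch tag of the knockout cohort although its title places it in the RH cohort, and it was kept where the title puts it.

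Class II molecules present peptides to CD4+ T cells, and their genes sit in a cluster on chromosome 17 that also holds class I heavy chain genes and members of other immune families. Crebbp encodes a lysine acetyltransferase that acts at enhancers, and loss or mutation of it in germinal centre B cells and in the lymphomas that arise from them is known for low expression of class II genes. Crebbp itself lies on chromosome 16. Apart from the butyrophilin-like pair, the 7 genes have unrelated products: an actin motor (Myo1f), 2 relatives of the butyrophilin family of immunoglobulin-like surface proteins (Btnl1 and Btnl2), a class Ib heavy chain (H2-M3), a death domain receptor (Tnfrsf21), a protein of tight junctions and the Golgi (Tjap1) and a cullin (Cul9).

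Positions are those of GENCODE M21 on GRCm38, the assembly that mm10 names. Along the chromosome the order is Myo1f (chr17:33555707-33607764), Btnl2 (chr17:34354822-34369495), Btnl1 (chr17:34377132-34386028), H2-M3 (chr17:37270220-37274484), Tnfrsf21 (chr17:43016555-43089189), Tjap1 (chr17:46257851-46283026) and Cul9 (chr17:46500572-46546388). Tjap1 and Cul9 are on the minus strand and the other 5 on the plus strand, and all 7 are protein-coding. Btnl2 and Btnl1 start 0.07 and 0.09 Mb after the start of H2-Aa, a class II chain gene. Myo1f starts 0.73 Mb before it and H2-M3 2.98 Mb after it, whereas Tnfrsf21, Tjap1 and Cul9 start 8.73, 12.0 and 12.3 Mb after it. At the 33 Mb edge the tested gene just inside was Zfp763, with a log2 difference in KO of 0.26, and just outside was Zfp952, at -0.01. At the 47 Mb edge Tbcc was just inside, at 0.38, and Ubr2 just outside, at 0.00.

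The sequence before the start of 5 of the genes is printed: the 3 with immune receptor-like or peptide-presenting products, which were lower in KO, and the 2 farthest from the class II cluster, which were higher. RefSeq's promoter table on GRCm38.p6 matched all 7 genes. Each sequence below holds the 250 bases before the RefSeq start, read 5′ to 3′ on the strand of the gene. Capitals mark matches to 7 short motifs searched on both strands: the cAMP response element TGACGTCA, its core TGACG (which lies within the former), an interferon response core GAAANNGAA, a gamma-activated sequence TTCNNNGAA, the CCAAT box CCAAT, an ETS core GGAAGT and an E box CACGTG. The regions are chr17:34354572-34354821 (+) for Btnl2, chr17:34376882-34377131 (+) for Btnl1, chr17:37269984-37270233 (+) for H2-M3, chr17:46283027-46283276 (-) for Tjap1 and chr17:46546389-46546638 (-) for Cul9.
Btnl2: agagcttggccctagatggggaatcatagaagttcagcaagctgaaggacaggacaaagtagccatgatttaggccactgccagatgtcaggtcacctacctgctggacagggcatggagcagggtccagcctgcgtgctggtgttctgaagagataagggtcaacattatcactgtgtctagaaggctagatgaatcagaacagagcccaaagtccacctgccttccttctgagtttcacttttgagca
Btnl1: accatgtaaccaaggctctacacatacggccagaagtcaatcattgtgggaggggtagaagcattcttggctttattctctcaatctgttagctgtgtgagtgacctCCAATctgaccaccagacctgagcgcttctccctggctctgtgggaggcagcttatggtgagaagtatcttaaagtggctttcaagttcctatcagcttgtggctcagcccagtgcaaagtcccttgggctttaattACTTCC
H2-M3: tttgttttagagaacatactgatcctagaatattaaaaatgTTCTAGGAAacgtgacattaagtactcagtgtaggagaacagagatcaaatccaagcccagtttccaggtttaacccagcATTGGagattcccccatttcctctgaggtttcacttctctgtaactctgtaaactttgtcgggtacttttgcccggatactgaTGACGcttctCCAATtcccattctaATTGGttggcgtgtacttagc
Tjap1: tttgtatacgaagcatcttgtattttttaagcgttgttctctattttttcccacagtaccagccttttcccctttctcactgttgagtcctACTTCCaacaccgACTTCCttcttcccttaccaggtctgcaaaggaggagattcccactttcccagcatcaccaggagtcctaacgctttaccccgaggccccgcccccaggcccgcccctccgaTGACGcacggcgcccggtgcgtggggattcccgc
Cul9: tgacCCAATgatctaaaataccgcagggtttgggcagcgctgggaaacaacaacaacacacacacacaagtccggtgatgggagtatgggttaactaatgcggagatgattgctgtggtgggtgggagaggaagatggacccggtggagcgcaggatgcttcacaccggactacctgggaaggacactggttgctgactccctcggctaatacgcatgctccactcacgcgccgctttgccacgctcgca

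A TGACG core stood 46 bases before the start of H2-M3 and 34 bases before that of Tjap1, counting the first base of the match on the strand of the gene, and 17.7% of 32817 promoters of the same length held one. H2-M3 also held 3 CCAAT boxes and 1 TTCNNNGAA match, which 33.8% and 7.01% of promoters held at least once. Btnl1 held 1 CCAAT box and 1 GGAAGT core, Tjap1 held 2 GGAAGT cores and Cul9 held 1 CCAAT box, with GGAAGT found in 19.7% of promoters. Btnl2, Myo1f and Tnfrsf21 had no match to any of the motifs in this window. TGACGTCA, GAAANNGAA and CACGTG, in 1.55%, 7.12% and 6.02% of promoters, were found before none of the 7 genes. Their GC content ran from 41.2% in H2-M3 to 56.0% in Cul9, against a median of 52.4% over all promoters. No motif of the search was shared by all the genes that were lower in KO or by all that were higher.

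Library totals ran from 41362856 to 93040297 counts, and on the first principal component the other 14 libraries were separated from RH HOMO 2 and RH cohort WT 1. Of the 7 genes the smallest count in any library was 88, of Cul9 in RH cohort WT 1. The germinal centre marker Bcl6 was high in all libraries, from 358 to 547 CPM. The sum of 10 neutrophil markers ran from 0 CPM in a RH HET library to 0.848 CPM in a RH HOMO library. Of these markers Elane and Retnlg were at 0 in all libraries. Whole-gene Crebbp levels were 123, 137 and 108 CPM in KO and 131, 127 and 149 CPM in KO cohort WT, ranges that overlap. They were 93.2, 91.3 and 122 CPM in RH cohort WT, 138, 124, 137 and 126 CPM in RH HET and 115, 68.6 and 126 CPM in RH HOMO. The deleted part is not given in the sources used here, so these gene totals do not check the label.

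Per kilobase of exon, the median level over the 16 libraries was 27.7 CPM per kb for H2-M3, 26.3 for Btnl2, 7.39 for Tjap1, 1.77 for Btnl1, 1.60 for Myo1f, 0.890 for Tnfrsf21 and 0.539 for Cul9. The share of a gene's 50-base stretches found in another gene's exons was 0% for Myo1f, Btnl1, Btnl2 and Tjap1, 0.576% for H2-M3, 0.453% for Cul9 and 0.346% for Tnfrsf21. The 1 annotated gene that overlaps a member, Gm26785 on the other strand of Tjap1, shares no exonic base with it. In sorted bulk cells, fewer cells of a type and less RNA per cell cannot be told apart.

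In KO the 4 genes nearest the class II cluster were lower than in wild type and the 3 far from it were higher. Myo1f, Btnl1, Btnl2 and H2-M3 lay below their wild type in every library, and Tnfrsf21, Tjap1 and Cul9 above it. The largest of these differences were those of Myo1f and Cul9, at about the same size in opposite directions. In the RH cohort Myo1f, Btnl1 and Cul9 kept the direction they had in KO in both knock-in genotypes, without overlapping the wild type. Tnfrsf21 also kept its direction in both, but RH HET overlapped its wild type. Btnl2 was lower in RH HOMO and near its wild type mean in RH HET. H2-M3 and Tjap1 overlapped the wild type with differences near 0. All 7 genes had KO libraries that did not overlap the wild type, where 25.4% of all tested genes were so separated. All 7 also passed an adjusted p of 0.05 in the edgeR quasi-likelihood test, against 1.3% of all tested genes, a count that the choice of the genes fixes. Leaving out 1 library took that count to 0 (KO cohort WT 1 or 2), to 1 (KO 1 or 3) or to 2 (KO 2 or KO cohort WT 3).

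**Figure D1:**
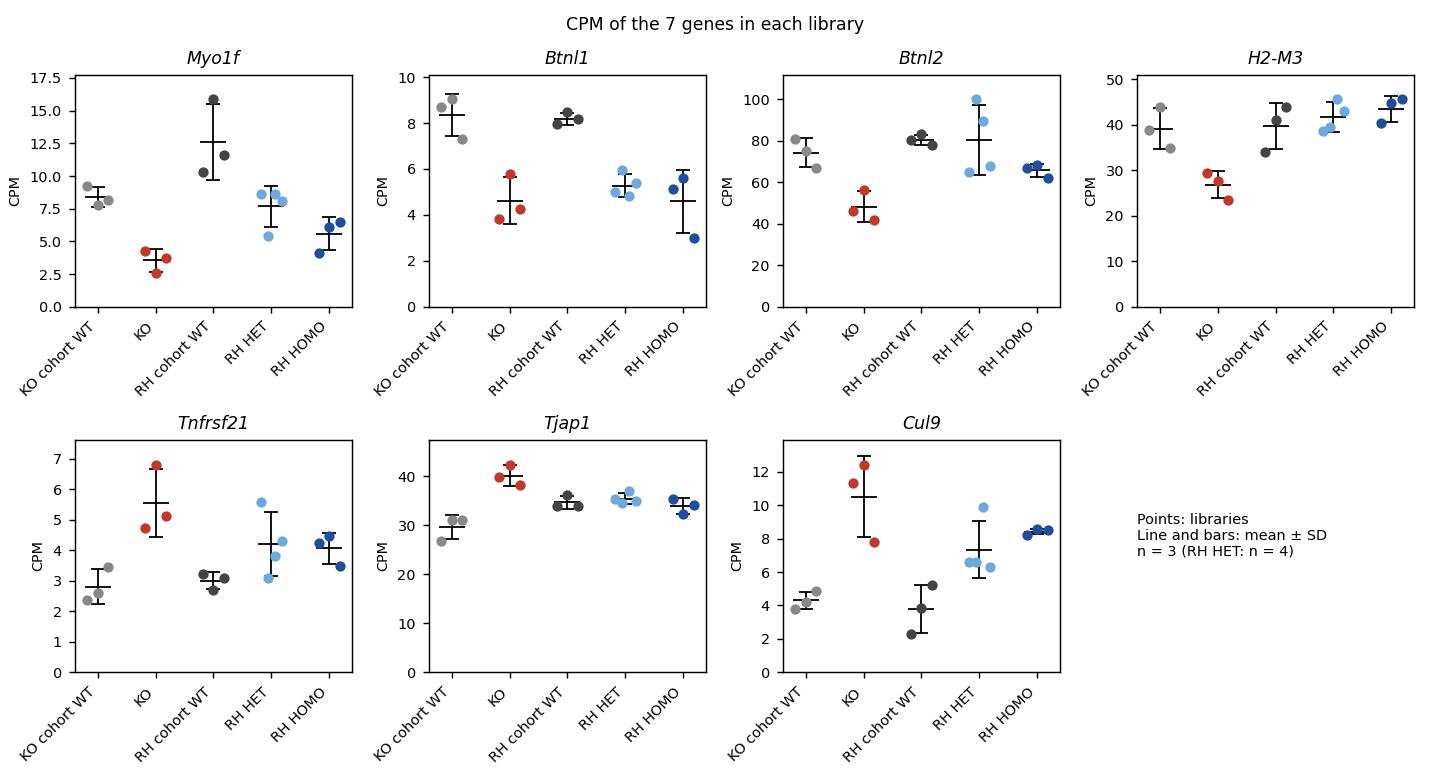
CPM (vertical axis, from 0) of each of the 7 genes in every library, by group (horizontal axis). Points are libraries and lines with bars are means ± SD (n = 3, RH HET n = 4). In KO all 3 points lie below those of KO cohort WT for Myo1f, Btnl1, Btnl2 and H2-M3 and above them for Tnfrsf21, Tjap1 and Cul9.

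Myo1f encodes a single-headed class I myosin that links actin to membranes and is found mainly in blood cells. Its level was 4.29, 2.61 and 3.74 CPM in the KO libraries and 9.22, 7.77 and 8.15 CPM in KO cohort WT. All KO values were low and none reached the wild type range, with a log2 difference of -1.23 ± 0.23 (SE). In RH cohort WT it was 10.3, 15.9 and 11.6 CPM, in RH HET 8.66, 5.39, 8.65 and 8.11 CPM and in RH HOMO 4.13, 6.09 and 6.51 CPM. Both knock-in genotypes were below their wild type without overlap, at -0.71 ± 0.21 in RH HET and -1.18 ± 0.23 in RH HOMO on the log2 scale. RH HOMO overlapped RH HET through RH HET 2, and the log2 difference between the means was -0.46 ± 0.21. The wild types did not overlap either, with RH cohort WT above KO cohort WT in all libraries and a log2 difference of 0.59 ± 0.23. By group mean the order was RH cohort WT, KO cohort WT, RH HET, RH HOMO and KO, and KO cohort WT and RH HET were the neighbours that differed by less than their spread.

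Myo1f is also expressed by macrophages and other myeloid cells. The summed level of 18 macrophage and monocyte markers ran from 34.2 to 40.7 CPM in KO and from 47.7 to 54.3 CPM in KO cohort WT. In RH HOMO the sum was 60.7 to 72.3 CPM and in RH HET 53.9 to 67.8 CPM, against 50.8 to 58.5 CPM in RH cohort WT. Myo1f was thus low in KO with a low sum and low in RH HOMO with a high one. Mpeg1, from 16.2 to 41.8 CPM over all libraries, and Cd68, from 8.07 to 13.1 CPM, made up most of the sum. Csf1r ran from 3.19 to 9.07 CPM, Adgre1 from 0.611 to 3.75 CPM and Lyz2 from 0.0211 to 3.81 CPM. The monocyte genes Ccr2 and Cd14 did not exceed 0.147 and 0.212 CPM in any library. Of the 15 markers tested in KO, 9 had positive and 6 negative differences, and edgeR called Mpeg1 alone, at -0.82 (adjusted p up to 0.0927 when KO 2, KO 3 or one of the wild type libraries 1 and 2 was left out). Dendritic cell markers summed to 35.3 to 39.1 CPM in KO and 47.03 to 58.0 CPM in KO cohort WT, with 4 of the 5 tested negative and Flt3 called at -0.51 (adjusted p = 0.0473), a call lost without any 1 of the 6 libraries. T cell markers summed to 78.2 to 82.8 CPM against 98.0 to 112 CPM, but 4 of the 6 tested were positive, with a median of 0.59, and edgeR called none. The part of these cells in the levels of the 7 genes was not tested.

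Markers of the sorted cells themselves were also lower in sum in KO. The 13 germinal centre markers summed to 11413 to 12113 CPM in KO and 13256 to 13467 CPM in KO cohort WT, and 10 of the 13 were below wild type on average (median log2 difference -0.13). Of these edgeR called Rgs13, a regulator of G protein signalling, which fell by 1.58 (adjusted p = 0.00223). Plasma cell markers summed to 775 to 862 CPM in KO against 915 to 920 CPM in wild type, stromal markers to 337 to 353 against 425 to 459 CPM, follicular helper T cell markers to 212 to 240 against 252 to 298 CPM and NK cell markers to 0.354 to 0.439 against 0.621 to 0.928 CPM, with none of their tested genes called by edgeR. These sums did not overlap between KO and its wild type, whereas the sum of follicular B cell markers did (1086 to 1260 against 1159 to 1267 CPM). Cr2 stands on both the stromal and the follicular B cell list, so the stromal sum does not measure stromal cells alone. With 4 stromal and 3 follicular helper genes tested, the sums of these lists do not show how many such cells were present. The sums of erythroid markers overlapped too, at 9.19 to 11.9 CPM in KO against 7.83 to 10.6 CPM. Of the 5 erythroid genes tested, 2 were positive and 3 negative, and edgeR called Car2 higher. The sums without overlap were lower in KO, as were Myo1f, Btnl1, Btnl2 and H2-M3, whereas Tnfrsf21, Tjap1 and Cul9 were higher. The part of these markers in the differences of the 7 genes was not tested.

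**Figure D2:**
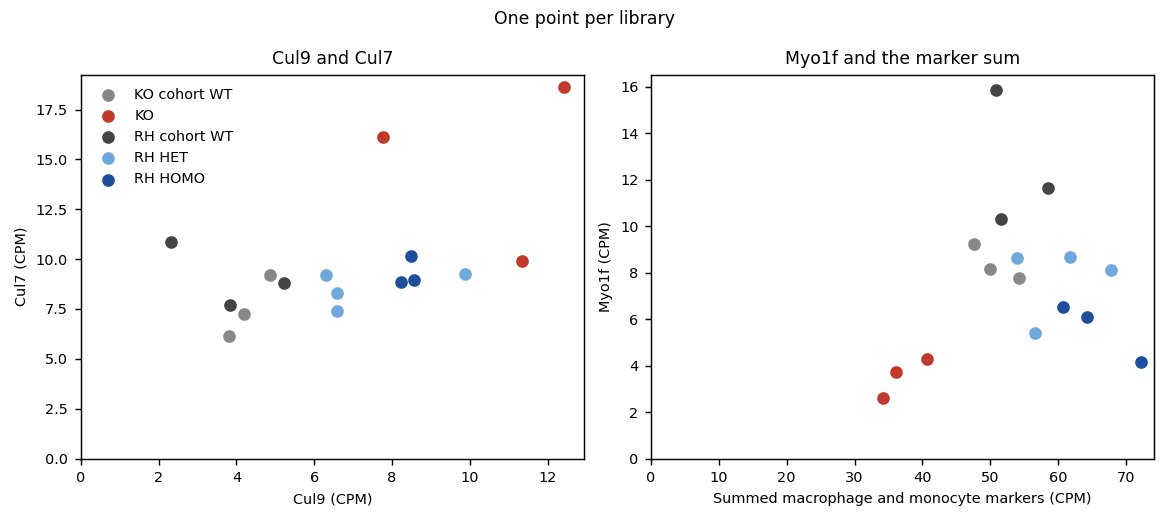
Left, Cul7 against Cul9, and right, Myo1f against the summed macrophage and monocyte markers, all in CPM with one point per library coloured by group. The KO libraries have the lowest marker sums and RH HOMO holds sums of 60.7 to 72.3 CPM, while Myo1f is below its own wild type in both. All 3 KO libraries lie above KO cohort WT for both Cul9 and Cul7.

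Btnl1 is a butyrophilin-like protein known from its display to γδ T cells in the gut. It was measured at 3.84, 5.76 and 4.26 CPM in KO and at 8.68, 9.03 and 7.31 CPM in KO cohort WT. The KO libraries were all lower, with a log2 difference of -0.85 ± 0.20. In the RH cohort the wild type libraries lay close together at 7.94, 8.47 and 8.16 CPM. RH HET libraries were at 4.996, 5.94, 4.80 and 5.38 CPM and RH HOMO libraries at 5.12, 5.63 and 3.02 CPM, and neither group overlapped its wild type. The log2 differences were -0.63 ± 0.19 and -0.83 ± 0.20. The 3 Crebbp mutant groups had mean levels of 5.28, 4.62 and 4.59 CPM (RH HET, KO and RH HOMO), which differed by less than their spread, as did the wild types of both cohorts, at 8.34 and 8.19 CPM. Btnl1 thus formed a high pair and a low trio of groups.

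Btnl2, the neighbour of Btnl1, is known as an inhibitor of T cell activation. Its levels were 46.3, 56.4 and 41.9 CPM in KO and 80.9, 75.1 and 67.0 CPM in KO cohort WT. The KO libraries were all lower, at -0.63 ± 0.15 on the log2 scale. In RH cohort WT it was 80.2, 83.1 and 78.1 CPM and in RH HOMO 67.1, 68.2 and 62.1 CPM, again without overlap, but the log2 difference was -0.29 ± 0.15. The RH HET libraries spread widely around the wild type, at 64.8, 100.02, 89.5 and 67.8 CPM, with a log2 difference of 0.00 ± 0.14. Btnl2 and Btnl1 lie next to each other on the same strand and were both low in KO and in RH HOMO. In RH HET all 4 libraries were low for Btnl1, and 2 were above and 2 below every wild type library for Btnl2. Whether the difference of Btnl2 in RH HET is unlike that of Btnl1 was not tested.

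H2-M3 is a class Ib heavy chain that presents peptides beginning with N-formyl methionine. It was 29.3, 27.6 and 23.5 CPM in KO and 38.8, 43.8 and 34.8 CPM in KO cohort WT. No KO library reached the wild type range, and the log2 difference was -0.55 ± 0.12. In the RH cohort the wild type libraries were at 34.0, 41.05 and 43.9 CPM, RH HET at 38.5, 39.5, 45.5 and 42.98 CPM and RH HOMO at 40.3, 44.7 and 45.5 CPM. These 3 groups overlapped, with log2 differences of 0.07 ± 0.11 in RH HET and 0.13 ± 0.12 in RH HOMO. In the order of group means KO cohort WT, RH cohort WT, RH HET and RH HOMO did not differ beyond their spread, and KO alone lay below. Whether the differences of H2-M3 in KO and in RH HOMO are unlike was not tested.

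Tnfrsf21 encodes death receptor 6, a TNF receptor family member with a cytoplasmic death domain. It was 4.72, 6.80 and 5.12 CPM in KO and 2.36, 2.58 and 3.45 CPM in KO cohort WT. The KO libraries were all higher, at 0.99 ± 0.22 on the log2 scale. In RH cohort WT it was 3.22, 2.70 and 3.09 CPM, in RH HOMO 4.24, 4.46 and 3.496 CPM and in RH HET 5.59, 3.08, 3.82 and 4.30 CPM. RH HOMO lay above its wild type without overlap, and in RH HET 1 of the 4 libraries fell within the wild type range. The log2 differences were 0.48 ± 0.21 in RH HET and 0.44 ± 0.23 in RH HOMO. Both wild types lay at the bottom of the order, at mean levels of 2.80 and 3.002 CPM.

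Tjap1 encodes a protein found at tight junctions and the Golgi. It was 39.8, 42.4 and 38.2 CPM in KO and 26.8, 31.1 and 31.0 CPM in KO cohort WT. The KO libraries were all higher, with the smallest log2 difference of the 7 genes, 0.44 ± 0.09. In RH cohort WT it was 33.8, 36.2 and 34.0 CPM, in RH HET 35.3, 34.5, 37.0 and 35.0 CPM and in RH HOMO 35.3, 32.2 and 34.1 CPM. The 3 groups of the RH cohort could not be ordered beyond their spread, and the log2 differences from wild type were 0.03 ± 0.08 and -0.03 ± 0.09. All of them lay above KO cohort WT and below KO. The log2 difference between the wild types was 0.23 ± 0.09, below the value of KO against its own wild type.

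Cul9, also known as Parc, is a very large cullin that holds a ubiquitin ligase domain of its own and binds p53 in the cytoplasm. It was 11.4, 12.4 and 7.77 CPM in KO and 3.81, 4.20 and 4.87 CPM in KO cohort WT. Every KO library was higher, with a log2 difference of 1.29 ± 0.25. In RH cohort WT it was 2.31, 3.82 and 5.21 CPM, in RH HET 6.57, 6.58, 9.88 and 6.30 CPM and in RH HOMO 8.23, 8.55 and 8.49 CPM. Both knock-in genotypes were above every wild type library of their cohort, at 0.95 ± 0.24 and 1.15 ± 0.25 on the log2 scale. The group means fell in the order KO, RH HOMO, RH HET, KO cohort WT and RH cohort WT. KO and RH HOMO, RH HOMO and RH HET, and the wild types of both cohorts were neighbours that did not differ beyond their spread, so the step lay between the Crebbp mutant groups and the wild types.

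**Figure D3:**
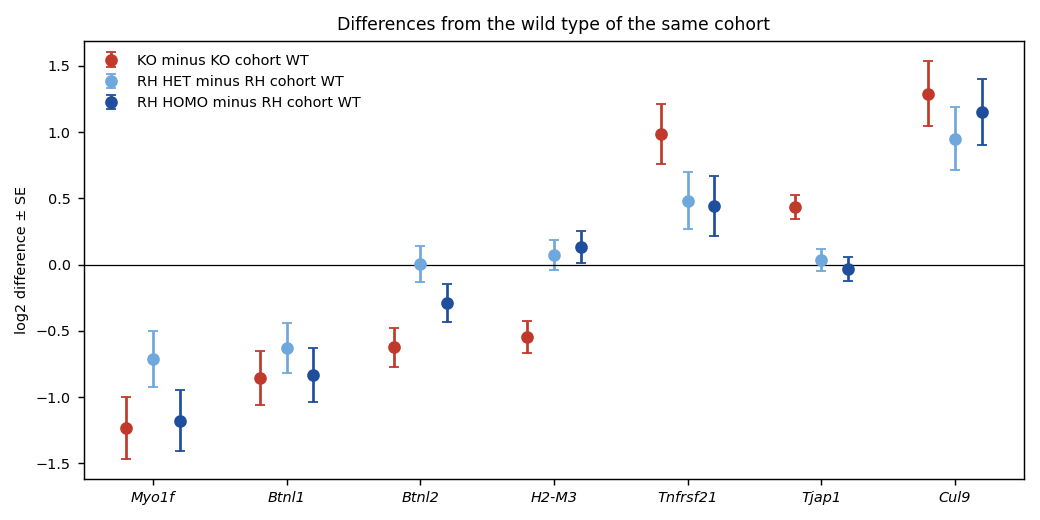
log2 difference from the wild type of the same cohort (vertical axis) for each of the 7 genes (horizontal axis) in KO, RH HET and RH HOMO. Points are edgeR estimates and bars are ± SE. Myo1f, Btnl1, Tnfrsf21 and Cul9 lie on the same side of 0 in all 3 comparisons, whereas H2-M3 and Tjap1 are away from 0 in KO and within about 1 SE of it in RH HET and RH HOMO.

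RH HET and RH HOMO were compared with the same 3 wild type libraries, so their differences are not independent of each other. The choice of the 7 genes also used both of these comparisons. Their counts against wild type are therefore descriptions, and no enrichment can be read from them. In RH HET 3 of the 7 genes, Myo1f, Btnl1 and Cul9, did not overlap the wild type, where 6.49% of all tested genes did not. None of the 7 passed the adjusted threshold in RH HET, where 0.0181% of all genes did. In that comparison 4 of the 7 had an unadjusted p under 0.05, against 7.18% of all tested genes. DESeq2 called 1 of the 7 and limma-voom called 3. In RH HOMO 5 genes did not overlap the wild type, against 15.4% of all genes, and Myo1f and Cul9 passed the threshold, against 1.57% of all genes. Without RH HOMO 1 or RH cohort WT 2 the latter count was 0, without RH HOMO 3 or RH cohort WT 1 it was 1 (Myo1f), and without RH HOMO 2 it was 3, Btnl1 being the third. DESeq2 and limma-voom with all libraries also called 3, again with Btnl1. Without both RH cohort WT 1 and RH HOMO 2, which stood apart above, the log2 differences in RH HOMO were -1.37 for Myo1f, -1.03 for Btnl1, -0.32 for Btnl2, 0.02 for H2-M3, 0.42 for Tnfrsf21, -0.01 for Tjap1 and 0.89 for Cul9. In RH HET they were -0.83, -0.65, 0.01, -0.02, 0.54, 0.02 and 0.70 for the same genes in the same order, so Myo1f, Btnl1 and Cul9 again had the widest differences. Between RH HOMO and RH HET none of the 7 was called, against 0.0% of all genes. An unadjusted p under 0.05 was found for 2 of the 7, against 11.4% of all genes, and DESeq2 and limma-voom called none of the 7. The largest log2 difference between RH HOMO and RH HET among them was that of Myo1f, given above. Between the wild types of both cohorts none of the 7 was called, against 5.06% of all genes. There 2 of the 7 (28.6%) had an unadjusted p under 0.05, near the 25.5% of all genes. DESeq2 called none of the 7 and limma-voom called 2.

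The other genes of the same stretch served as a comparison. In KO, edgeR called 2 of the 229 tested genes that are neither listed class II genes nor among the 7. That is 0.873%, against 1.3% of all tested genes, and the median log2 difference of the 229 was 0.00. An unadjusted p under 0.05 was found for 41 of them (17.9%), against 12.1% of all tested genes. DESeq2 called 14 of the 229 and limma-voom 25. Among the 229 are H2-Ea-ps, H2-Pa and H2-Pb, loci of the class II cluster that were not listed, at -0.91, -1.11 and -2.15, all uncalled. The pair called by edgeR were Olfr98, which flanks H2-M3, and Cul7, which lies beyond Cul9. Together with 5 class II genes (H2-Aa, H2-Eb1, H2-DMa, H2-DMb2 and H2-Oa) and the 7, 14 genes of the stretch were called. All 10 of these that end before 38 Mb were lower in KO and all 4 that start after 43 Mb were higher, a split that the choice of the 7 genes largely sets. The class II calls dropped from 5 to 0 on leaving out KO 1, KO 3 or one of the wild type libraries 2 and 3 of that cohort.

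**Figure D4:**
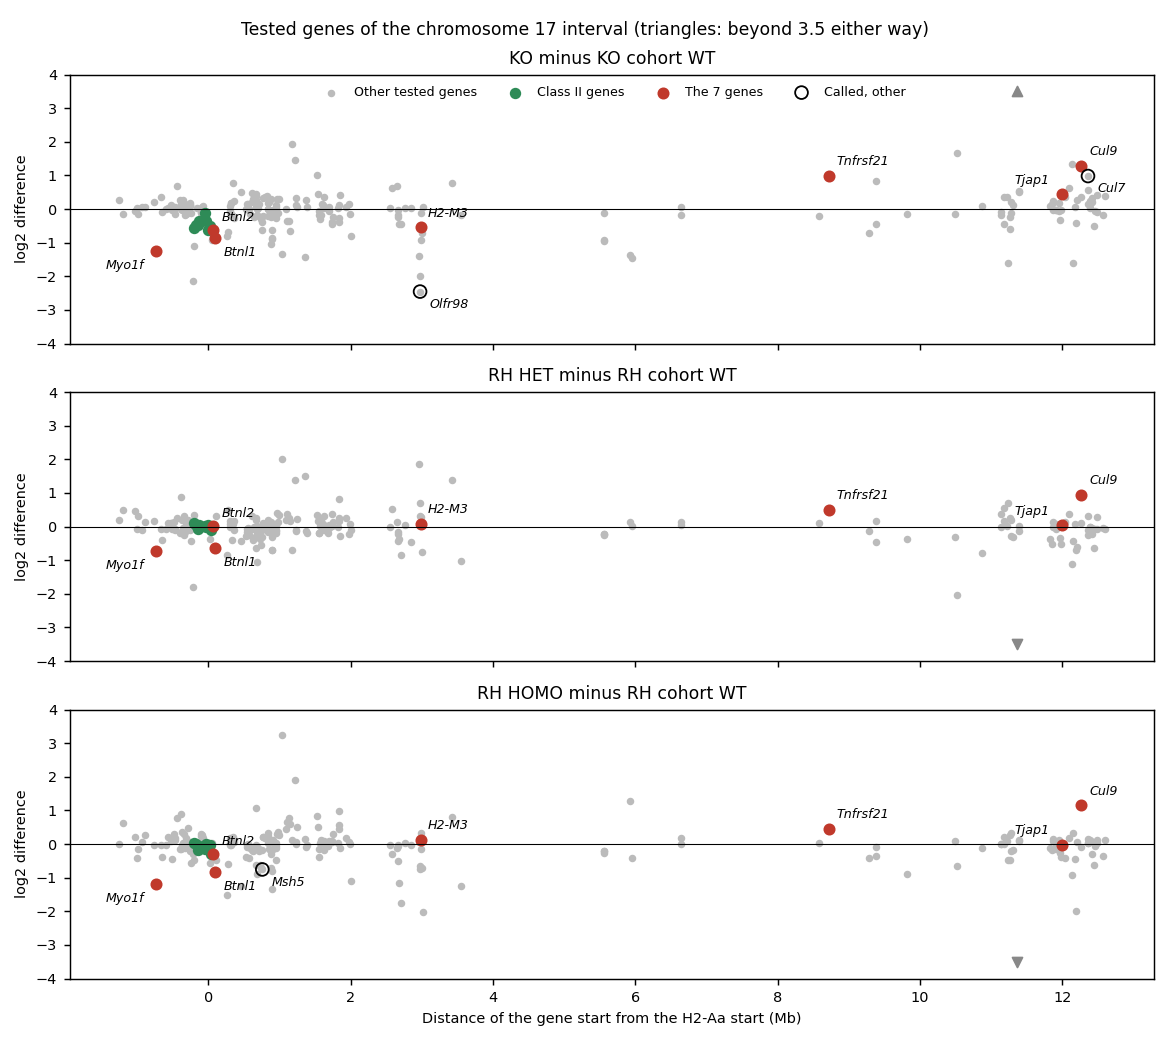
log2 difference (vertical axis) of the 245 tested genes of the stretch against the distance of each gene's start from that of H2-Aa in Mb (horizontal axis), in 3 panels, one for each Crebbp mutant genotype against its own wild type. Red points are the 7 genes, green points the listed class II genes, grey points other genes, open circles other called genes, and triangles mark Capn11, which lies beyond the axis. In KO the class II points and the 4 nearest of the 7 lie below 0 and the 3 distant ones above it, while in RH HET and RH HOMO the class II medians are 0.02 and -0.04.

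The 9 listed class II genes all had negative log2 differences in KO, with a median of -0.47, and H2-Aa fell by 0.61 ± 0.11 (adjusted p = 0.0108). Btnl1, Btnl2 and Myo1f had larger negative differences than that median and H2-M3 one of similar size. In RH HET and RH HOMO the class II medians were 0.02 and -0.04, and edgeR, DESeq2 and limma-voom called none of the 9, none of which had an unadjusted p under 0.05 either. Myo1f and Btnl1 were low in these knock-in genotypes, beside class II genes whose median was near 0. H2-Eb2, of the 9 the one nearest Btnl2, had the lowest value of the 9 in RH HOMO, -0.31 (adjusted p = 0.443), where Btnl2 was at -0.29. H2-M3 followed the class II median in this respect, being low in KO and near its wild type level in the RH cohort.

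The nearest tested protein-coding genes on both sides of the 7 gave 12 flanking genes. In KO edgeR called 1 of them, Olfr98, whereas DESeq2 called 4 and limma-voom 7. In RH HET and RH HOMO none of the 3 tools called a flanking gene and none had an unadjusted p under 0.05. Olfr98, an olfactory receptor gene whose end lies 6.471 kb before H2-M3, was at 0.398, 0.310 and 0.306 CPM in KO and 2.11, 2.11 and 1.38 CPM in KO cohort WT, and fell by 2.46 ± 0.53 (adjusted p = 0.0283). This rests on 14 to 22 counts in the KO libraries, and leaving out any 1 of the 6 libraries compared left it above the threshold, uncalled. Olfr99, 4.559 kb after H2-M3, had a log2 difference of -0.91 that missed the threshold (adjusted p = 0.0593). H2-M3 thus lay between genes with negative values on both sides. The class II gene H2-Eb2 before Btnl2 was at -0.58 (adjusted p = 0.0897) and BC051142 after Btnl1 at -0.86 (adjusted p = 0.23). Adamts10 and Zfp414, on either side of Myo1f, were at 0.21 (adjusted p = 0.666) and 0.36 (adjusted p = 0.0925), in the direction opposite to Myo1f. Around Tnfrsf21, Cd2ap was at -0.21 (adjusted p = 0.55) and Pla2g7 at -0.72 (adjusted p = 0.262), also opposite to the gene they flank. Beside Tjap1, Lrrc73 was at -0.33 (adjusted p = 0.821) and Abcc10 at 0.36 (adjusted p = 0.56), and beside Cul9, Dnph1 was at 0.27 (adjusted p = 0.865) and Srf at 0.35 (adjusted p = 0.219). In RH cohort WT against KO cohort WT, 5 of the 12 flanking genes were positive and 7 negative. There edgeR called Zfp414 at 0.51 (adjusted p = 0.0168) and Cd2ap at -0.45 (adjusted p = 0.0429). Olfr98, Olfr99 and BC051142 were at -1.19, -0.75 and -0.80 between these wild types, uncalled but without overlap. The part of the KO cohort WT level in the KO differences of the flanking genes was not tested.

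Cul7 is the closest relative of Cul9, a scaffold of a ubiquitin ligase that also binds p53, and lies beyond Cul9 in the same stretch. Its level was 9.92, 18.6 and 16.1 CPM in KO and 6.13, 7.26 and 9.21 CPM in KO cohort WT. It rose by 0.98 ± 0.21 on the log2 scale (adjusted p = 0.0242), and this call was lost without KO 2, KO 3 or either of the libraries KO cohort WT 1 and 2, with adjusted p values up to 0.127 over all alternatives. In the RH cohort Cul7 overlapped its wild type, at -0.09 in RH HET and 0.04 in RH HOMO, where Cul9 was at 0.95 and 1.15. Cul9 was highest in KO 2 and KO 1, and Cul7 in KO 2 and KO 3. The share of 50-base stretches of Cul9 found in Cul7 was 0.25%. Over all tested genes an unadjusted p under 0.05 was found for 12.1% in KO, 7.18% in RH HET and 12.9% in RH HOMO. Among 18 tested genes of cullin ubiquitin ligases other than Cul9, edgeR called Cul7 alone in KO (4 at an unadjusted p under 0.05, 1 by DESeq2, 3 by limma-voom), and it called none in RH HET (1 at an unadjusted p under 0.05, none by DESeq2 or limma-voom) or in RH HOMO (3 at an unadjusted p under 0.05, 1 by each of the other tools).

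Relatives of the other members were read from lists chosen with earlier results of these data known. Among 4 tested butyrophilin family genes other than Btnl1 and Btnl2, Btn2a2 on chromosome 13 was called in KO and in RH HOMO. Its libraries were at 0.109, 0.266 and 0.363 CPM in KO and 2.38, 2.78 and 1.46 CPM in KO cohort WT, and it fell by 3.16 ± 0.43 (adjusted p = 0.00145). In RH HOMO it fell by 2.27 ± 0.41 (adjusted p = 0.00805), a call lost when only the 6 compared libraries were fitted (adjusted p = 0.117), and in RH HET its log2 difference was -0.78 (adjusted p = 0.689). Btn2a2, an inhibitor of T cell activation, was thus low in the same genotypes as Btnl1, at a larger size and with counts of 6 to 19 in KO.

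Class I and class Ib heavy chain genes other than H2-M3 numbered 18 tested. In KO 15 of them had negative differences and the median was -0.32, against 0.00 over all genes, but edgeR called none (5 at an unadjusted p under 0.05, 1 by DESeq2 and 3 by limma-voom). H2-T23, the gene of the class Ib molecule Qa-1, had a log2 difference of -0.45 (adjusted p = 0.0729), close to that of H2-M3. In RH HOMO 16 of the 18 were positive, with a median of 0.35 against 0.02 over all genes and again none called by edgeR (9 at an unadjusted p under 0.05, 3 by DESeq2 and none by limma-voom). H2-M3 lay below that median. Of 15 genes of class I peptide loading, 14 were positive in RH HOMO, with a median of 0.30, and 10 had an unadjusted p under 0.05. DESeq2 called 3 of them, limma-voom 5 and edgeR 2. The edgeR calls were B2m and Tapbpl, which rose by 0.61 ± 0.14 (adjusted p = 0.0275) and 0.47 ± 0.10 (adjusted p = 0.0259). These calls were lost without RH HOMO 2, RH cohort WT 2 or RH cohort WT 3, that of Tapbpl also without RH HOMO 1 or RH cohort WT 1. Many class I genes are near-identical, so their counts are uncertain.

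Of 17 tested TNF receptor family genes other than Tnfrsf21, edgeR called 1 higher in KO and 2 lower. In KO 5 had an unadjusted p under 0.05, and DESeq2 and limma-voom called 4 each. The death receptor gene Tnfrsf10b rose by 1.37 ± 0.29 (adjusted p = 0.0247), a larger difference than that of Tnfrsf21 in the same direction. It was also above wild type without overlap in RH HET, at 0.56, and in RH HOMO, at 0.76, uncalled by edgeR (adjusted p = 0.724 and 0.241). Tnfrsf13c, which encodes the BAFF receptor, fell by 0.45 ± 0.10 (adjusted p = 0.042), and Tnfrsf26 by 0.81 ± 0.17 (adjusted p = 0.0249). The call of Tnfrsf26 was lost without any 1 of the 6 libraries compared, that of Tnfrsf10b without any but KO cohort WT 2 and that of Tnfrsf13c without any but KO 2. In RH HOMO Tnfrsf13b, which encodes the receptor TACI, fell by 0.41 ± 0.09 (adjusted p = 0.039), a call lost without any 1 of the 6 libraries. There 7 of the 17 had an unadjusted p under 0.05, and DESeq2 called 1 and limma-voom 4. In RH HET edgeR and DESeq2 called none of the 17, with 4 at an unadjusted p under 0.05 and 1 called by limma-voom. Of 17 tested unconventional myosins other than Myo1f, edgeR called none in any of the 3 comparisons with wild type, with 2, 0 and 3 at an unadjusted p under 0.05 in KO, RH HET and RH HOMO, 1 called by limma-voom in KO and none by DESeq2. Their medians in the same order were 0.03, -0.01 and -0.18. Of 20 genes of tight junctions and cell polarity other than Tjap1, edgeR, DESeq2 and limma-voom called none in KO, where 1 had an unadjusted p under 0.05, and in RH HOMO Patj fell by 0.69 ± 0.16 (adjusted p = 0.0311), a call lost without any 1 of 5 of the 6 libraries (all but RH HOMO 3). Of these 20 genes 16 were positive and 4 negative in KO, with a median of 0.10 against -0.002 over all genes. Tjap1 was thus higher in KO beside junction and polarity genes that were not called but mostly had positive differences.

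In RH HOMO the called gene of the stretch outside the 7 and the class II genes was Msh5, a meiotic mismatch repair homologue, which fell by 0.76 ± 0.16 (adjusted p = 0.0232). The call was lost without RH HOMO 1, RH HOMO 3, RH cohort WT 2 or RH cohort WT 3. In RH HET edgeR and DESeq2 called none of the 229, and limma-voom called 2. An unadjusted p under 0.05 was found for 20 of them (8.73%), against 7.18% of all tested genes. Between the wild types of both cohorts 14 of the 229 were called, 11 of them higher in RH cohort WT, and the median log2 difference was 0.18 against 0.01 over all genes. Leaving out RH cohort WT 1, 2 or 3 gave counts of 1, 0 and 35, and leaving out KO cohort WT 1, 2 or 3 gave 0, 0 and 6. Of the 7 genes, Myo1f and Tjap1 had levels in RH cohort WT above all those of KO cohort WT, and Btnl1, Btnl2, H2-M3, Tnfrsf21 and Cul9 overlapped between the wild types.

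The genes whose pattern over the 16 libraries was most like each of the 7 were found by the root mean square (RMS) difference of their centred log2 CPM, where a smaller value is more alike. For H2-M3 the nearest were H2-DMa (0.13), H2-T23 (0.14) and H2-Oa (0.15), all in the same stretch, and 8 of its 50 nearest genes lay there. For Btnl1 they were Lrrc49 (0.23), Msh5 (0.24) and Dqx1 (0.25), and for Btnl2 Nek8 (0.13), Fam213a (0.15) and Rapgef3 (0.17). Of the 50 nearest, 3 lay in the stretch for Btnl1 and 5 for Btnl2. For Myo1f the nearest were Pde2a (0.35), Il2rb (0.36) and Aif1l (0.37), none on chromosome 17, and none of its 50 nearest lay in the stretch. For Tnfrsf21 they were Lmo4 (0.24), Zdhhc8 (0.25) and Evi5l (0.25), for Tjap1 Edc4 (0.06), Scaf1 (0.07) and Polg (0.08), and for Cul9 Naip5 (0.30), Kdm5b (0.33) and Zmynd11 (0.34). Each of these 3 had 1 of its 50 nearest genes in the stretch. The stretch held 245 of the 16606 tested genes, and its share of the genes ranked here was not counted. The libraries share depth and cohort in all these comparisons, so the values describe likeness and no test was made.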

How the data were processed

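Groups were taken from the sample titles, because several sample tags are shifted against their values. The authors deposited whole-number read counts per gene symbol. Per the submitters' processing notes, CASAVA 1.8, HISAT2, featureCounts and mm10 were used; the strand setting, the annotation and other versions were not given in the sources used here. Per the labels' protocols the kit was TruSeq RNA v2, which does not mark strand. In R 4.3.3, edgeR 4.0.16 kept 16606 genes (filterByExpr), scaled libraries by TMM and fitted 5 group means to all 16 libraries (11 residual degrees of freedom, quasi-likelihood test, Benjamini-Hochberg adjustment over all tested genes, called at an adjusted p under 0.05). CPM uses TMM-scaled totals, and the SE is the log2 difference over the square root of F. The test was checked on simulated counts. The 7 genes, the gene lists, the naming rules and the alternatives were chosen with earlier results of these data known. Relatives named were up to 3 called genes per list, by smallest p, plus the flanking genes and the 3 genes most alike to each member. Alternatives were DESeq2 1.42.0 and its size factors, limma-voom (limma 3.58.1), other filters, other sets of libraries or controls, an adjusted p of 0.1 and leaving out each library; terms for sex (read from Xist) and mitochondrial share were chosen after seeing the data. Depth was at least 41362856 counts in every library, and genes with few counts, such as Olfr98 and Btn2a2, carry more counting error.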

Additional observations from a re-analysis of the deposited data

Results flagged for a closer look

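Of 33 genes examined, namely the 7, their flanking genes, the class II genes and other genes that the naming rules took from the stretch, 6 had 1 RH HET library far from the other 3, by a gap of more than 0.829 of the range of the group, and chance alone gives this in about 1 of 20 groups. Among the 7 these were Myo1f, with 5.39 CPM in RH HET 2, and Cul9, with 9.88 CPM in RH HET 3. The others were Cd2ap (262 CPM), Mrpl14 (17.1 CPM), Zfp414 (28.2 CPM) and H2-Eb2 (94.7 CPM). The 33 genes were measured in the same 4 libraries, so these are not independent draws.

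H2-M3 had log2 differences of opposite sign in KO and RH HOMO relative to their own wild types, -0.55 ± 0.12 and 0.13 ± 0.12. The RH HOMO value was about 1 SE from 0 and fell as low as 0.02 over 18 settings. All 3 KO libraries were below the mean of their wild type and all 3 RH HOMO libraries above the mean of theirs, although the ranges of RH HOMO and its wild type overlap. The difference itself was not tested.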

How the results depend on the processing

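Over all alternatives and left-out libraries, 385 log2 differences of the 7 genes were recomputed: 379 moved by less than 1 SD of the libraries within groups, 6 by more, and 0 reversed a called value. Signs changed for values near 0: Btnl2 in RH HET (7 of 19 settings), H2-M3 in RH HET (4 of 19) and Tjap1 in RH HOMO (2 of 18). In KO, called genes of the 7 ranged from 0 to 2 of 7 when 1 library was left out, and 7 became 6 with no count filter or all 6 wild types (without Tjap1) and with a sex term (without Tnfrsf21). In RH HET, 0 became 1 with DESeq2 and 3 with limma-voom. In RH HOMO, 2 became 0 with only the compared libraries, 1 with RH cohort WT 1 in the KO cohort, 1 with a mitochondrial term, 3 (Btnl1 added) with DESeq2 size factors, DESeq2, limma-voom, no immunoglobulin genes, no count filter, 1 CPM in 3 libraries or all 6 wild types, and 0 to 3 when 1 library was left out.

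Calls among the other 229 genes of the stretch moved as follows. In KO, 2 became 7 with no count filter, 14 with DESeq2, 25 with limma-voom, 12 with only the compared libraries, 4 with RH cohort WT 1 in the KO cohort, 8 without RH cohort WT 1 and RH HOMO 2, 5 with all 6 wild types as control, 5 with a sex term, 5 with a mitochondrial term, 6 at an adjusted p of 0.1, and 0 to 1 when 1 library was left out. In RH HET, 0 became 1 with no count filter and 2 with limma-voom. In RH HOMO, 1 became 5 with no count filter, 10 with DESeq2, 16 with limma-voom, 0 with only the compared libraries, 3 without RH cohort WT 1 and RH HOMO 2, 13 with all 6 wild types, 2 with a sex term, 0 with a mitochondrial term, 4 at an adjusted p of 0.1, and 0 to 3 when 1 library was left out. Between RH HOMO and RH HET, 0 became 1 with DESeq2. Between the wild types, 14 became 26 with no count filter, 28 with a filter of 1 CPM in 3 libraries, 40 with DESeq2, 80 with limma-voom, 39 with only the compared libraries, 0 with RH cohort WT 1 in the KO cohort, 23 without RH cohort WT 1 and RH HOMO 2, 0 with a mitochondrial term, 40 at an adjusted p of 0.1, and 0 to 35 when 1 library was left out. The causes were not tested. No paired analysis was possible because the titles carry no replicate numbers and those used here follow accession order.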
